A study of Mus musculus with 24 samples.

Results

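The genes described here are 10 immediate early transcription factors: the JUN proteins Jun, Junb and Jund, the FOS proteins Fos, Fosb and Fosl2, the zinc finger factors Egr1, Egr2 and Egr3, and Ier2. They were taken by name from a table of 53465 genes, and all 10 matched 1 row each and passed the filter on low counts that left 14249 genes to test. Their RNA was followed in RN2 cells, from acute myeloid leukaemia of the mouse, with the genotype Mll-Af9; NrasG12D. All groups thus share NrasG12D, an active form of Nras. Cells had been transduced with retroviral vectors for a short hairpin RNA that doxycycline switches on, and were sampled at day 0, untreated, and at day 4 of doxycycline. Clones 2 and 7 held the control hairpin shRen713. Clones 1 and 5 held shOgdh346, whereas shOgdh2081 was in clone 3 and in another clone also numbered 5. Both Ogdh hairpins target Ogdh, a subunit of the 2-oxoglutarate dehydrogenase complex of the mitochondrial tricarboxylic acid cycle. Each clone and day had libraries of replicate 1 and replicate 2, which gave 24 libraries in 6 groups of 4. Each line was 1 clone grown in culture, and nothing in the labels says that the paired libraries of a clone came from separate cultures. Hence the clone is the replicate, with 2 per hairpin, and the p-values below measure the spread between these clones, apart from exceptions stated with them.

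Immediate early genes are transcribed within minutes of a signal, without new protein synthesis, and most of their RNAs are short-lived. JUN and FOS proteins pair through leucine zippers to form AP-1, which binds sites related to TGANTCA, whereas EGR proteins bind GC-rich sites through zinc fingers. In myeloid cells these factors act downstream of RAS, the MAP kinases and serum response factor, and several of them accompany the maturation of monocytes and macrophages.

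The knockdown was visible in Ogdh itself. Its level was 202 to 253 CPM (counts scaled to a library total of 1000000) in the control libraries of both days. In the Ogdh hairpin libraries it was 126 to 235 CPM at day 0 and 32.3 to 70.9 CPM at day 4. Library totals ran from 7209186 to 20705468 counts. Markers of the myeloid progenitor and leukaemia list, such as Mpo and Elane, were present in every library, with a summed level of 3900 to 8480 CPM over 10 genes. Within that sum single genes moved in both directions. The lowest levels of Mpo (325 CPM) and Elane (468 CPM) in all libraries were in Ogdh hairpin libraries of day 4. Their highest levels (4890 and 2130 CPM) were in control libraries of day 4. Cd33 went the other way at day 4, at 1260 CPM or more in every Ogdh hairpin library and 467 CPM or less in the control. The 8 neutrophil markers summed to 182 to 2870 CPM in all libraries of day 0, to 254 to 1240 CPM in the control at day 4, to 15500 to 39500 CPM with shOgdh346 and to 5980 to 10700 CPM with shOgdh2081. The summed level of the 9 monocyte and macrophage markers lay between 1310 and 2170 CPM, most of it Ly6c2 at 996 to 1980 CPM. Single markers of that list moved: at day 4 Cd14 was at 157 CPM or more in every Ogdh hairpin library and at 31.3 CPM or less in the control, whereas the lowest levels of Csf1r (23.1 CPM) and Cx3cr1 (5.84 CPM) in all libraries were in Ogdh hairpin libraries of day 4. Among markers of cells foreign to the line, the T lymphocyte list reached at most 1.06 CPM with Cd3e at 0, the B lymphocyte list 16.8 CPM and the stromal, endothelial and epithelial list 75.1 CPM with Col1a2 and Dcn at 0. The erythroid and megakaryocyte list, with Hbb-bs at 0, was higher with the Ogdh hairpins at day 4, at 2.23 to 7.86 CPM in the control, 14.9 to 20.4 CPM with shOgdh346 and 42.9 to 75.4 CPM with shOgdh2081, where Itga2b made up to 73.4 CPM of it. The mast cell and eosinophil list, with Cma1 and Tpsb2 at 0, held 7.15 to 10.1 CPM in the control at day 4, 13.4 to 30.9 CPM with shOgdh346 and 16.5 to 41.6 CPM with shOgdh2081, with Siglecf at up to 36.8 CPM. The part of these markers in the results was not tested. In these bulk samples a change in the share of a cell state and a change in RNA per cell cannot be told apart.

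The promoters of 7 of the 10 genes were searched, with start sites from RefSeq (build GRCm38.p6). Those of Egr1, Egr3 and Ier2 were not searched, so nothing is said of them here. In the 250 bases before the start site, on both strands, 3 of 7 held TGACG, the core of the cyclic AMP response element, against 17.8% of 32851 promoters, and 2 of 7 held the EGR site GCGNGGGCG, against 4.7%. None of the 7 held the full element TGACGTCA (1.55% of all promoters), the AP-1 site TGANTCA (6.75%), the ETS core CCGGAA (12%) or the CArG box (1.47%), which says only that these letters are not in this window. TGACGTCA contains TGACG, so those searches overlap. The 150 bases before the start sites of the 3 genes with a core TGACG are shown, since these genes behaved differently in the results, with TGACG and, in Fosb, GCGGGGGCG in capitals. They lie at chr12:85473740-85473889 on the plus strand for Fos, at chr7:19310046-19310195 on the minus strand for Fosb and at chr8:84978749-84978898 on the minus strand for Junb.
Fos: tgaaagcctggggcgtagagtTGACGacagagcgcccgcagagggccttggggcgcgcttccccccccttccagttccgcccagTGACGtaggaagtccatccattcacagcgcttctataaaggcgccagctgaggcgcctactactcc
Fosb: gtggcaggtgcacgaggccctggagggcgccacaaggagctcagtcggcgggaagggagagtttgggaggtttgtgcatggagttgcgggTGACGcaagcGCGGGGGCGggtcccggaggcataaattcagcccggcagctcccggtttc
Junb: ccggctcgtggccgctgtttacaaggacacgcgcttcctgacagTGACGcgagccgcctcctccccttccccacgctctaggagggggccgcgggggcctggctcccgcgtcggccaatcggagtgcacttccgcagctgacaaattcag
Counted from the start site, TGACG of Fos began at -129 and -66, that of Fosb at -60 and that of Junb at -106, and the EGR sites of Fosb and Fosl2 at -50 and -79. The RefSeq start site lay 671 bases from the start of the deposited gene for Fosl2 and 1210 bases from it for Jund, so those windows need not be the promoters of the deposited gene models. As shown next, the 3 genes with these sequences did not move alike: Junb rose with the Ogdh hairpins, Fosb fell in every clone, and Fos did not pass the test of the mean net change.

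The genes are compact. Their median span in the deposited table was 4698.5 bases, against 18188 for all genes tested, and 9 of 10 lay below that median. Jun, Junb, Jund and Ier2 had a single exon in GENCODE M21, whose coordinates for all 10 genes equal those deposited.

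The comparison of most interest set the change from day 0 to day 4 with an Ogdh hairpin against the change with the control hairpin, the net change. Averaged over both Ogdh hairpins, 7 of the 10 genes had a net rise and none a net fall by edgeR's quasi-likelihood test (adjusted p under 0.05 over all genes), where 17.9% of all genes tested had a net rise and 19.8% a net fall. The 7 were Egr1, Egr2, Fosb, Jun, Jund, Junb and Ier2. The median net change of the 10 genes was 1.93 on the log2 scale, against -0.00 for all genes. With shOgdh346 alone 6 had a net rise (16.4% of all genes), and with shOgdh2081 alone 7 did (13.6%). Leaving out a control clone lowered these counts and the background together: the mean net rise was called for 3 genes without control clone 2 and for 2 without control clone 7, and the share of all genes called in either direction went from 37.7% to 15.9% and 13.9%. The counts with shOgdh346 were then 3 and 1 (15.8% and 14.1% of all genes in place of 34.8%), and those with shOgdh2081 3 and 2 (9.05% and 7.47% in place of 27.8%). The shOgdh346 count fell to 2 without shOgdh346 clone 1 (22.8% of all genes), and also to 2 without 1 library, replicate 1 of shOgdh2081 clone 3 at day 0 (32.8%), which enters only through the shared spread.

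**Figure D1:**
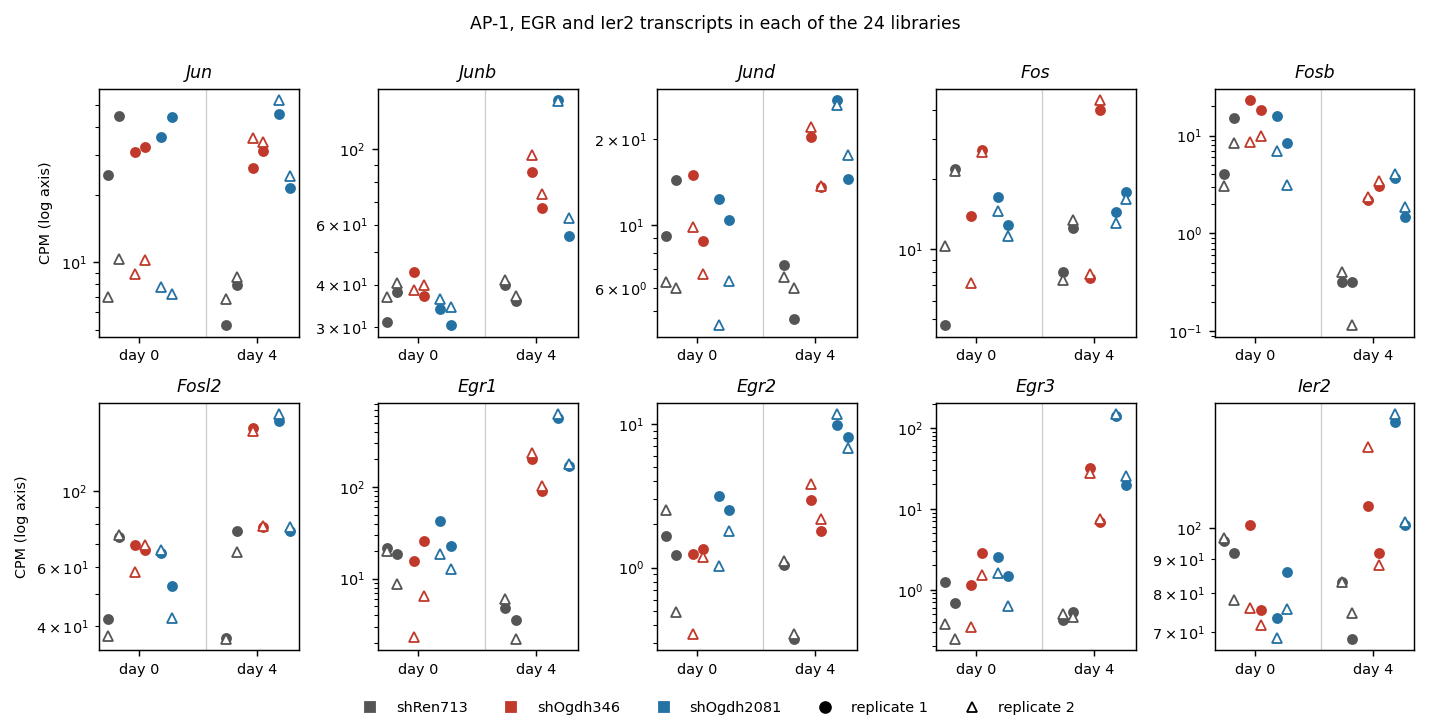
Level of each of the 10 genes in all 24 libraries (CPM, log axis), with day 0 at the left and day 4 at the right of each panel. Colours mark the hairpin, filled circles replicate 1 and open triangles replicate 2; the columns of a colour are its clones. At day 4 all 8 Ogdh hairpin libraries lie above all 4 control libraries for 8 of the genes, and at day 0 the circles and triangles of Jun lie far apart.

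At day 4 every library with an Ogdh hairpin lay above every control library for 8 of the 10 genes, all but Fos and Fosl2, which was so for 16.8% of all genes tested. In edgeR's test of levels at day 4, 7 genes were higher with shOgdh346 (16.3% of all genes) and 8 with shOgdh2081 (13.4%). Leaving out a clone brought the former to 2 without shOgdh346 clone 1, 4 without its clone 5, 4 without control clone 2 and 3 without control clone 7, where 17.3%, 25.5%, 19.1% and 19.5% of all genes were called in either direction, in place of 35.9%. It brought the latter to 3 without control clone 7, 5 without control clone 2 and 4 without shOgdh2081 clone 3, where 9.92%, 13.4% and 16.1% of all genes were called, in place of 28.5%. At day 0 no gene of the 10 differed in level between either Ogdh hairpin and the control in edgeR's test, nor did any other gene (0% called). None of the 10 had an unadjusted p under 0.05 there. DESeq2 called none of the 10 either, with 0.175% of all genes called for shOgdh346 and 0% for shOgdh2081. Ogdh itself was at 126 to 150 CPM with shOgdh346 and at 202 to 250 CPM in the control at day 0 (edgeR, unadjusted p = 0.0514). Thus the levels of the 10 genes could not be told apart between the hairpin groups at day 0 with 2 clones each, and the separation was present at day 4.

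Jun, the main transactivating partner of AP-1 (ENSMUSG00000052684, GRCm38 chromosome 4, 95049034 to 95052222), is best read at day 4. It measured 5.26 and 6.85 CPM in the libraries of control clone 2 and 7.95 and 8.65 CPM in those of clone 7. With shOgdh346 it measured 26.4 and 35.8 CPM in clone 1 and 31.2 and 34.3 CPM in clone 5. With shOgdh2081 it measured 45.7 and 52.5 CPM in clone 3 and 21.4 and 24.1 CPM in clone 5. All Ogdh libraries were above all control libraries, with clone 3 of shOgdh2081 highest. The level at day 4 was 4.47-fold higher than in the control with shOgdh346 (log2 difference 2.16 ± 0.42 SE, adjusted p = 0.00591) and 4.96-fold higher with shOgdh2081 (2.31 ± 0.42, adjusted p = 0.00644). Both differences passed the test with each single library or clone left out.

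Day 0 was another matter for Jun, since the paired libraries of a clone disagreed there. Replicate 1 held 24.4 and 44.7 CPM in control clones 2 and 7, 31 and 32.7 CPM in the shOgdh346 clones and 36 and 44.5 CPM in the shOgdh2081 clones. Replicate 2 held 7.06 and 10.4 CPM in the control clones, 8.93 and 10.3 CPM in the shOgdh346 clones and 7.76 and 7.26 CPM in the shOgdh2081 clones. In other words, every replicate 1 library was above every replicate 2 library, with a ratio of 3.18 to 6.13 within a clone. The net change of Jun was 2.19 ± 0.44 SE on the log2 scale (adjusted p = 0.0116), 2.11 when day 0 was replicate 1 alone and 2.25 when it was replicate 2 alone. By contrast, the change within a hairpin depended on which library stood for day 0. In the control Jun changed by -1.66 ± 0.37 (adjusted p = 0.0581), by -2.22 from replicate 1 alone (adjusted p = 0.00975) and by -0.28 from replicate 2 alone (adjusted p = 0.58). With shOgdh346 the change was 0.55 ± 0.33, 0.03 from replicate 1 alone and 1.78 from replicate 2 alone (adjusted p = 3.34e-05). With shOgdh2081 it was 0.51 ± 0.33, -0.26 from replicate 1 alone and 2.16 from replicate 2 alone (adjusted p = 1.75e-05). Hence whether Jun fell in the control or rose with the Ogdh hairpins could not be settled from these libraries, while the difference between them was as large either way. The net change missed the threshold without the day 0 replicate 1 library of control clone 2 (1.80, adjusted p = 0.118), control clone 7 (1.40, adjusted p = 0.102) or shOgdh2081 clone 3 (2.43, adjusted p = 0.0705), without day 0 replicate 2 of shOgdh2081 clone 5 (2.00, adjusted p = 0.061), and without control clone 2 (2.45, adjusted p = 0.0602) or control clone 7 (1.85, adjusted p = 0.127).

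Junb, a JUN protein with weaker transactivation that restrains myeloid growth (ENSMUSG00000052837, GRCm38 chromosome 8, 84974484 to 84978718), was steadier between libraries. At day 0 its 12 libraries lay between 30.4 and 43.7 CPM. The control at day 4 held 39.9 and 41.3 CPM in clone 2 and 35.8 and 37 CPM in clone 7. With shOgdh346 it held 85.4 and 96.4 CPM in clone 1 and 67.3 and 73.7 CPM in clone 5. With shOgdh2081 it held 139 and 138 CPM in clone 3 and 55.6 and 62.6 CPM in clone 5. The groups did not overlap at day 4, and the Ogdh clones rose from day 0 by 0.85 to 1.98 on the log2 scale while the control clones changed by 0.25 and -0.10. The mean net change was 1.15 ± 0.31 SE (adjusted p = 0.0326). It missed the threshold without the replicate 2 library of control clone 2 at day 0 (1.10, adjusted p = 0.0573), without control clone 2 (1.31, adjusted p = 0.123), control clone 7 (0.96, adjusted p = 0.227) or shOgdh346 clone 1 (1.06, adjusted p = 0.0702), and without the clone as a block (1.21, adjusted p = 0.0703).

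Jund, the JUN protein that most tissues express at rest (ENSMUSG00000071076, GRCm38 chromosome 8, 70698949 to 70700616), followed Junb in direction. Control libraries at day 4 held 7.25 and 6.55 CPM in clone 2 and 4.67 and 6 CPM in clone 7. With shOgdh346 they held 20.3 and 22.1 CPM in clone 1 and 13.6 and 13.7 CPM in clone 5. With shOgdh2081 they held 27.3 and 26.3 CPM in clone 3 and 14.5 and 17.6 CPM in clone 5. Again no Ogdh library reached down to a control library. Jund had a mean net change of 1.67 ± 0.30 SE (adjusted p = 0.00304), which passed the test under all 39 alternatives, between 1.19 and 2.11. With shOgdh346 alone the net change of Jund missed the threshold in 5 of 39 alternatives. Its day 4 level against the control missed it in 3 of 35 with shOgdh346 and in 2 of 35 with shOgdh2081.

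The JUN genes share sequence with annotated neighbours on the opposite strand: Junos over 689 bases of Jun, Prdx2 over 351 bases of Junb and the predicted gene Gm11175 over 919 of the 1668 bases of Jund. Gm11175 had 0 counts in all 24 libraries and Prdx2 had a net change of -0.11 (adjusted p = 0.494). Junos had a net change of 2.58 (adjusted p = 0.00983) at 0.228 to 7.44 CPM. No source used here states the strand setting of the counting, so reads in the shared stretches could have been dropped or assigned to either gene, and the levels of these genes are uncertain to that extent, that of Jund most.

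Fos, the short-lived partner of Jun that gave the FOS family its name (ENSMUSG00000021250, GRCm38 chromosome 12, 85473890 to 85477273), did not follow the hairpin. Control libraries at day 4 held 7.99 and 7.36 CPM in clone 2 and 12.4 and 13.4 CPM in clone 7. With shOgdh346 they held 7.56 and 7.87 CPM in clone 1 but 39.7 and 43.8 CPM in clone 5. With shOgdh2081 they held 14.5 and 13 CPM in clone 3 and 17.7 and 16.5 CPM in clone 5. The groups overlapped, with the highest and among the lowest values in clones of the same hairpin. The mean net change was 0.57 ± 0.42 SE (adjusted p = 0.341), and passed with no filter on low counts (0.55, adjusted p = 0.0272). The latter estimate was no larger, so that pass did not come from a larger change. Without shOgdh346 clone 5 the net change of that hairpin turned from 0.52 to -0.18. From day 0 replicate 2 alone the net change reached the threshold in both hairpins, at 1.10 with shOgdh346 (adjusted p = 0.0123) and 0.88 with shOgdh2081 (adjusted p = 0.0364).

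Fosb, a FOS protein with a full and a truncated splice form (ENSMUSG00000003545, GRCm38 chromosome 7, 19302696 to 19310051), was the only gene of the 10 called as falling from day 0 to day 4 in edgeR's test of the clone sums, and it did so under each hairpin. In the control DESeq2 also called Jun (-1.65, adjusted p = 3.00e-05) and Egr1 (-2.15, adjusted p = 0.00532) lower, and with no filter on low counts edgeR called Jun, Jund, Egr1 and Egr2 lower as well. Fosb was 1 of 347 genes called lower in the control (2.44% of genes tested, with 4.44% called higher and no gene of the 10 among those). At day 0 its libraries held 3.03 to 15.2 CPM in the control and 3.14 to 22.9 CPM with the Ogdh hairpins. At day 4 they held 0.315 and 0.403 CPM in control clone 2 and 0.318 and 0.115 CPM in control clone 7, which are few counts. With shOgdh346 they held 2.18 and 2.34 CPM in clone 1 and 3.06 and 3.4 CPM in clone 5, and with shOgdh2081 3.66 and 4.03 CPM in clone 3 and 1.46 and 1.88 CPM in clone 5. From day 0 to day 4 the level fell by 2.98 and 5.33 on the log2 scale in the control clones and by amounts from -1.53 to -2.96 in the Ogdh clones. The control change was -4.64 ± 0.49 SE (adjusted p = 0.00314), the change with shOgdh346 -2.53 ± 0.31 (adjusted p = 0.000169) and that with shOgdh2081 -1.64 ± 0.32 (adjusted p = 0.00288). Its net rise of 2.56 ± 0.59 (adjusted p = 0.00932) is therefore a smaller fall, not a rise above day 0. Without control clone 7, whose fall was the deepest, the net change was 1.16 (adjusted p = 0.247) and the control change -3.26 (adjusted p = 0.0981). Without the clone as a block the net change was 2.69 (adjusted p = 0.0604) and the change with shOgdh2081 -1.61 (adjusted p = 0.0785), and the latter was -0.76 (adjusted p = 0.0811) with replicate 2 alone at both days.

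Fosl2, also known as Fra-2 and longer-lived than Fos (ENSMUSG00000029135, GRCm38 chromosome 5, 32135801 to 32157842), split by clone. At day 4 control clone 2 held 37 and 36.7 CPM and control clone 7 held 76.5 and 66.5 CPM. Clone 1 of shOgdh346 held 154 and 151 CPM and clone 3 of shOgdh2081 held 161 and 169 CPM. The other Ogdh clones held 78.7 and 79.3 CPM with shOgdh346 and 76.2 and 78.5 CPM with shOgdh2081, close to the upper control library. The lowest Ogdh library lay just under the highest control library, so the groups overlapped by that 1 pair. For Fosl2 the mean net change was 0.94 ± 0.32 SE (adjusted p = 0.0658). The rise from day 0 passed the test with shOgdh2081 (1.02 ± 0.26, adjusted p = 0.0188) and not with shOgdh346 (0.72 ± 0.25, adjusted p = 0.0539). The former did not pass without shOgdh2081 clone 3 (0.72, adjusted p = 0.168), control clone 2 (1.01, adjusted p = 0.0592), control clone 7 (1.01, adjusted p = 0.057) or the clone as a block (1.09, adjusted p = 0.129). The mean net change of Fosl2 passed in 7 of 39 alternatives, among them DESeq2 (0.97, adjusted p = 0.00356), no filter on low counts (0.92, adjusted p = 4.98e-11) and the fits without day 0 replicate 2 of shOgdh346 clone 1 (0.91, adjusted p = 0.0468) or day 0 replicate 1 of shOgdh2081 clone 5 (0.98, adjusted p = 0.0467). By DESeq2 it also passed with each hairpin, at 0.82 with shOgdh346 (adjusted p = 0.0424) and 1.11 with shOgdh2081 (adjusted p = 0.00507). The fit with no filter changed the estimate little, and its far smaller p-value cannot be read as the spread between 2 clones per hairpin.

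Egr1, an activator tied to macrophage maturation (ENSMUSG00000038418, GRCm38 chromosome 18, 34859823 to 34864984), had the largest net change of the 10 genes and ranked 78 among all 14249 genes tested. At day 4 it measured 4.73 and 6.05 CPM in control clone 2 and 3.5 and 2.19 CPM in control clone 7. With shOgdh346 it measured 204 and 236 CPM in clone 1 and 89.6 and 103 CPM in clone 5. With shOgdh2081 it measured 573 and 625 CPM in clone 3 and 168 and 180 CPM in clone 5. The lowest Ogdh library thus stood far above the highest control library, and the Ogdh clones themselves ranged from 94.8 to 589 CPM. At day 0 the 12 libraries ran from 2.29 to 42.2 CPM with the hairpin groups overlapping. Every Ogdh clone rose, by 2.63 to 4.32 on the log2 scale, and both control clones went down, by 1.93 and 2.31, a change that missed the threshold (-2.12 ± 0.60 SE, adjusted p = 0.124) but passed in 6 of 39 alternatives, among them DESeq2 (-2.15, adjusted p = 0.00532) and no filter on low counts (-2.10, adjusted p = 1.60e-43). With no filter the estimate hardly moved, and its p-value cannot be read as the spread between the 2 control clones. The net change was 5.62 ± 0.76 with shOgdh346 (adjusted p = 0.00608) and 5.95 ± 0.75 with shOgdh2081 (adjusted p = 0.00688). Both hairpins' values missed the threshold when a control clone was left out, at 5.83 and 6.17 without clone 2 (adjusted p = 0.0962 and 0.11) and 5.42 and 5.76 without clone 7 (adjusted p = 0.0985 and 0.116).

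Egr2, which drives macrophage over neutrophil fate together with Egr1 and their corepressors (ENSMUSG00000037868, GRCm38 chromosome 10, 67535475 to 67542188), was scarce. At day 4 it measured 1.05 and 1.11 CPM in control clone 2 and 0.318 and 0.346 CPM in control clone 7. With shOgdh346 it measured 2.95 and 3.81 CPM in clone 1 and 1.8 and 2.19 CPM in clone 5. With shOgdh2081 it measured 9.81 and 11.7 CPM in clone 3 and 8.1 and 6.82 CPM in clone 5. All control libraries lay below all Ogdh libraries, as for 16.8% of all genes tested, and the shOgdh346 libraries lay below those of shOgdh2081. The level with shOgdh346 against shOgdh2081 did not pass edgeR's test (log2 difference -1.74 ± 0.55 SE, adjusted p = 0.294). How many of all genes separate the Ogdh hairpins in this way was not counted. Egr2 had a mean net change of 2.83 ± 0.47 SE (adjusted p = 0.00189), which passed the test under all 39 alternatives, between 2.43 and 3.34. With shOgdh346 alone the net change of Egr2 missed the threshold in 2 of 39 alternatives. Its day 4 level with that hairpin against the control missed it in 8 of 35.

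Egr3, a close relative of Egr2 (ENSMUSG00000033730, GRCm38 chromosome 14, 70077203 to 70082614), was nearly silent outside the Ogdh libraries of day 4. It measured 0.42 and 0.504 CPM in control clone 2 and 0.53 and 0.461 CPM in control clone 7 at day 4. With shOgdh346 it measured 31.7 and 28 CPM in clone 1 and 6.92 and 7.45 CPM in clone 5. With shOgdh2081 it measured 139 and 148 CPM in clone 3 and 19.8 and 25.6 CPM in clone 5. No group overlapped the control, and the Ogdh clones ranged from 7.13 to 142 CPM. The level at day 4 was 37.4-fold higher than in the control with shOgdh346 (log2 difference 5.22 ± 1.15 SE, adjusted p = 0.0102) and 170-fold higher with shOgdh2081 (7.41 ± 1.22, adjusted p = 0.00473). Both changes from day 0 passed as well, at 3.59 ± 0.82 (adjusted p = 0.0165) and 5.47 ± 0.79 (adjusted p = 0.00422), the former not without control clone 2 (3.53, adjusted p = 0.0889) or control clone 7 (3.53, adjusted p = 0.0859). The mean net change was 4.95 ± 1.89 and missed the threshold (adjusted p = 0.106), with the control change known only to -0.43 ± 1.64 at these low counts. The mean net change of Egr3 passed in 6 of 39 alternatives, among them DESeq2 (4.80, adjusted p = 0.000803), no filter on low counts (4.94, adjusted p = 6.26e-21) and the fit without day 0 replicate 1 of shOgdh346 clone 5 (5.28, adjusted p = 0.0319). By DESeq2 it also passed with each hairpin, at 3.86 with shOgdh346 (adjusted p = 0.0256) and 5.75 with shOgdh2081 (adjusted p = 0.000601). The estimate with no filter was near that of the main fit, and its far smaller p-value cannot be read as the spread between 2 clones per hairpin. The levels missed the threshold without control clone 2 (adjusted p = 0.102 and 0.0601), without control clone 7 (adjusted p = 0.0987 and 0.0685) and, for shOgdh346, without its clone 1 (3.85, adjusted p = 0.0617).

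Ier2, a small nuclear protein induced with AP-1 (ENSMUSG00000053560, GRCm38 chromosome 8, 84661331 to 84662852), moved least among the genes called. At day 4 it measured 83 and 83.2 CPM in control clone 2 and 68.3 and 74.8 CPM in control clone 7. With shOgdh346 it measured 108 and 132 CPM in clone 1 and 91.9 and 88 CPM in clone 5. With shOgdh2081 it measured 144 and 148 CPM in clone 3 and 101 and 102 CPM in clone 5. The groups did not overlap, although the lowest Ogdh library was near the highest control library. The mean net change was 0.77 ± 0.17 SE (adjusted p = 0.0086). It missed the threshold without control clone 2 (0.79, adjusted p = 0.0575), control clone 7 (0.72, adjusted p = 0.0802) or the clone as a block (0.78, adjusted p = 0.0599).

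**Figure D2:**
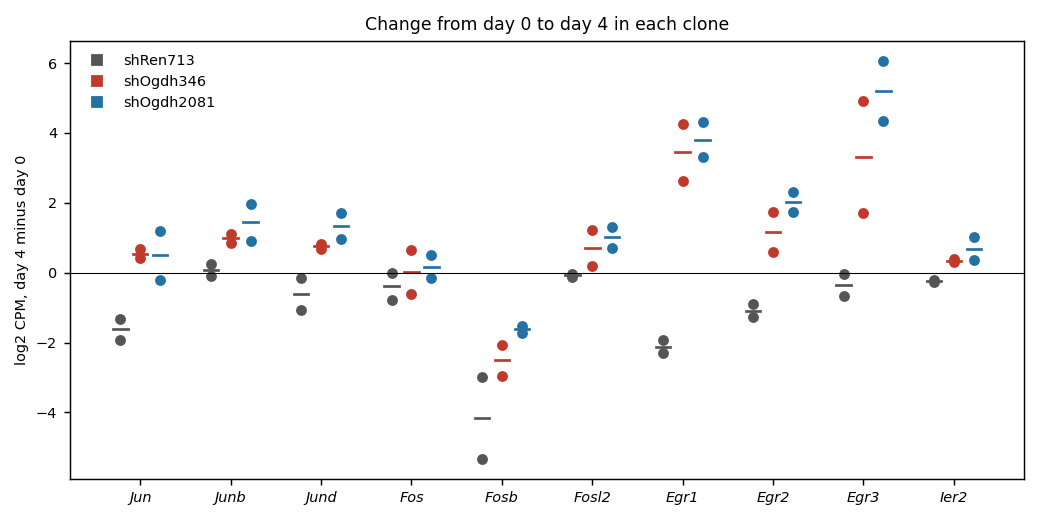
Change from day 0 to day 4 in each clone (log2 CPM of the summed libraries), one point per clone and a short bar at the mean of the clones of a hairpin. Every Ogdh clone lies above both control clones for Junb, Jund, Jun, the EGR genes, Fosl2 and Ier2. For Fosb all 6 clones lie below 0, and the lowest Ogdh clone (-2.96) is barely above the upper control clone (-2.98). How many of all genes separate in this way was not counted.

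Counting the changes within each hairpin, 5 of the 10 genes rose and 1 fell from day 0 to day 4 with shOgdh346, where 30.2% of all genes rose and 29.3% fell. Without its clone 1 the count in both directions was 3 in place of 6, with 39.8% of all genes called in place of 59.5%. With shOgdh2081, 7 rose and 1 fell, where 27.5% of all genes rose and 25.9% fell. The gene that fell was Fosb in both. Junb, Jund, Egr1, Egr2 and Egr3 passed as rising with both hairpins. With shOgdh346 the call was lost in 6 of 39 alternatives for Jund (adjusted p up to 0.126), in 3 for Egr2 (up to 0.265), in 2 for Junb (up to 0.128) and in 2 for Egr3 (up to 0.0889). Fosl2 and Ier2, which passed with shOgdh2081, passed with shOgdh346 in 8 and 11 of the 39 alternatives. The difference between the hairpins in their change was itself tested, and no gene of the 10 passed (0.0561% of all genes were called higher with shOgdh346 and 0.0491% lower). None of the 10 had an unadjusted p under 0.05, and none of the 10 was called by DESeq2, which called 0.709% of all genes. That difference had an estimate of -0.78 ± 0.46 SE for Egr2 and -1.88 ± 1.24 for Egr3 on the log2 scale, so a larger rise with shOgdh2081 was within the error. In levels at day 4 edgeR called no gene lower with shOgdh346 than with shOgdh2081 (0% of all genes), although 2 of the 10 had an unadjusted p under 0.05. DESeq2 called 0 of the 10 in that comparison and 2.04% of all genes.

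Clone 3 of shOgdh2081 had the highest level at day 4 for 9 of the 10 genes, all but Fos, whose highest level was in clone 5 of shOgdh346. For how many of all genes clone 3 of shOgdh2081 was highest was not counted. The same clone was not the one with the deepest fall of Ogdh, which stood at 69.1 CPM in it and at 34.7 to 54.8 CPM in the other Ogdh clones. Nor was it highest for the neutrophil markers, whose summed level was larger with shOgdh346 than with shOgdh2081. The part of those markers in the results was not tested.

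Per length, as CPM per kilobase of transcript (RPKM), the order of the genes also changed. In the control at day 4 Ier2 was highest at 50.8 ± 5.32 RPKM (SD, n = 2 clones), followed by Junb at 16.7 ± 1.26, with Fosl2 at 5.61 ± 2.56, Fos at 4.37 ± 1.58, Jund at 3.65 ± 0.665 and Jun at 2.25 ± 0.497 RPKM. Egr1 came after them at 0.922 ± 0.397 RPKM, then Egr2 at 0.208 ± 0.155, Egr3 at 0.109 ± 0.00574 and Fosb at 0.0465 ± 0.0156 RPKM. Over the 4 Ogdh clones at day 4 Ier2 stood at 75.5 ± 15.5 RPKM, Egr1 at 60.3 ± 48.8 and Junb at 39.1 ± 15.1. Below them lay Fosl2 at 12.2 ± 4.71, Jund at 11.7 ± 3.47, Egr3 at 11.4 ± 14, Jun at 10.6 ± 3.24 and Fos at 8.52 ± 6.25 RPKM, which did not differ beyond their spread. Egr2 at 1.72 ± 1.14 and Fosb at 0.438 ± 0.149 RPKM were lowest. Egr1 thus went from below every JUN gene to a level like those of Ier2 and Junb, within a wide spread between clones.

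**Figure D3:**
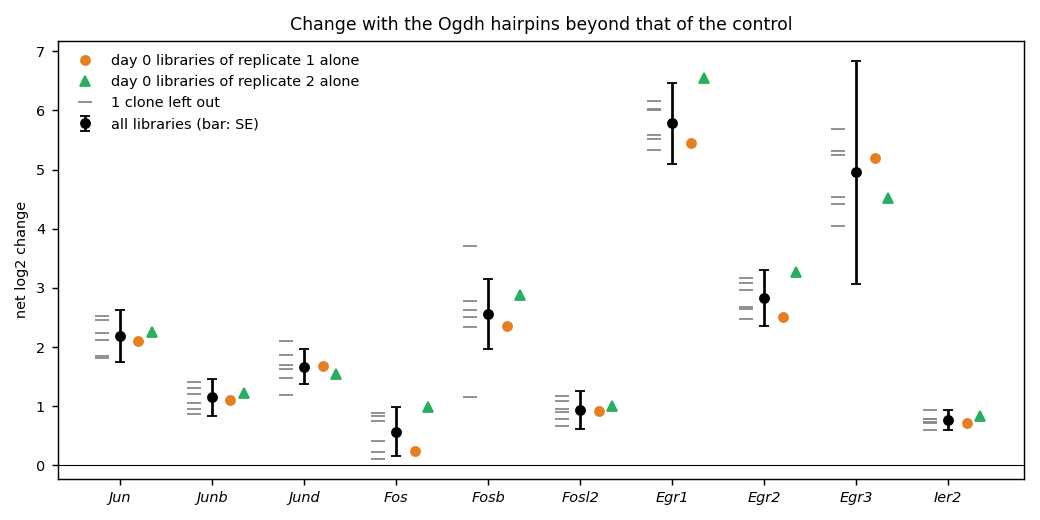
Net log2 change (mean of both Ogdh hairpins minus the control) of each gene, with all libraries (black, bar: SE), with day 0 replicate 1 alone (orange), with day 0 replicate 2 alone (green) and with 1 clone left out (grey dashes). All values lie above 0, from 0.11 for Fos to 6.54 for Egr1, and Fosb drops to 1.16 without 1 clone.

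The paired libraries of a clone held a pattern of their own at day 0. In a fit with the 6 clones as blocks, replicate 2 was lower than replicate 1 for 7 of the 10 genes and higher for none (edgeR, adjusted p under 0.05), where 18.5% of all genes were lower and 17.9% higher. Jun differed most, at -2.06 ± 0.09 SE on the log2 scale (adjusted p = 5.24e-15), lower in replicate 2 in 6 of 6 clones. Fosb at -1.09 ± 0.10 (adjusted p = 6.09e-11), Jund at -0.81 ± 0.11 (adjusted p = 7.32e-07) and Egr3 at -1.09 ± 0.27 (adjusted p = 0.00116) were also lower in 6 of 6 clones. Egr1 at -1.15 ± 0.30 (adjusted p = 0.0342) was lower in 6 of 6 clones, Egr2 at -0.65 ± 0.26 (adjusted p = 0.0452) in 5 of 6 and Ier2 at -0.18 ± 0.04 (adjusted p = 0.00141) in 5 of 6. Fos, Fosl2 and Junb did not pass in the main fit, and Fosl2 passed in 1 of 9 alternatives. The calls of Egr1 and Egr2 were the weakest: Egr1 missed the threshold with any 1 of 5 clones left out (adjusted p = 0.0525 to 0.0947), and Egr2 with any 1 of 4 (adjusted p = 0.0748 to 0.211). Within the clones, the replicate 1 level of Egr1 was 1.08 to 6.85 times that of replicate 2.

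At day 4 no gene of the 10 was lower in replicate 2. Replicate 2 was higher for 2 of the 10 genes (3.84% of all genes) and by little, 0.23 ± 0.06 SE for Jun (adjusted p = 0.00385) and 0.15 ± 0.03 for Egr1 (adjusted p = 0.000271). Jun missed the threshold without shOgdh346 clone 1 (0.19, adjusted p = 0.0515). A direct comparison of the replicate gaps of both days, chosen after seeing the data, gave a larger value at day 4 for the same 7 genes (13% of all genes), led by Jun at 2.29 ± 0.10 (adjusted p = 5.03e-23). What the replicate numbers stand for is not stated in the labels, so the source of the gap was not tested. Its bearing on the results is direct: levels at day 4 do not use the day 0 libraries except for the shared spread, whereas every change from day 0 averages over them.

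**Figure D4:**
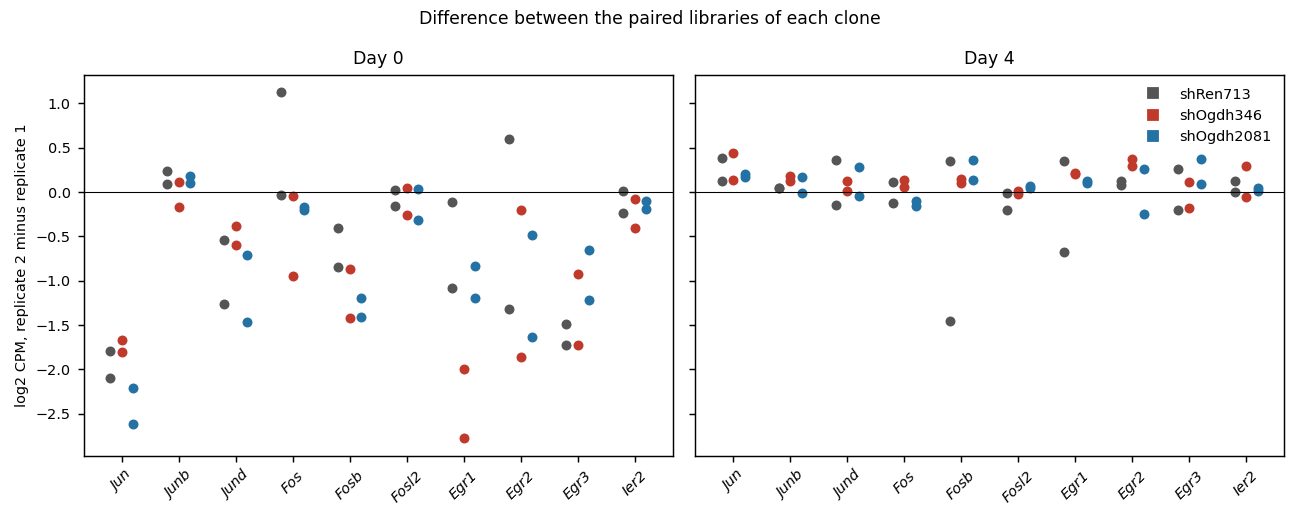
Difference between the paired libraries of each clone (log2 CPM, replicate 2 minus replicate 1) at day 0 and day 4, one point per clone. At day 0 all 6 clones lie below 0 for Jun, Jund, Fosb, Egr1 and Egr3, down to -2.78 for Egr1, and at day 4 the points lie near 0 apart from 1 of Fosb and 1 of Egr1 among the control clones.

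Partners and relatives of these factors were followed in lists made for the purpose, here described by counts and medians of the mean net change, beside a median of -0.00 for all genes. The lists were made with earlier results of these data known. Genes named from a list are the 4 with the smallest p in this net change, so their small p-values follow in part from that choice. Maff and Atf3 stand among both the AP-1 partners and the other immediate early genes, and Nab2 among both the EGR partners and the targets. Of 13 tested partners of AP-1, 6 had a net rise and none a net fall, with a median of 0.58, where 17.9% of all genes tested had a net rise and 19.8% a net fall. Bach1, a repressor of antioxidant genes, had a net change of 1.50 ± 0.11 SE (adjusted p = 5.38e-05), going from 134 ± 15.9 to 267 ± 57.6 CPM (SD, n = 4 clones) with the Ogdh hairpins and from 136 ± 3.62 to 94.8 ± 3.59 CPM (n = 2) in the control. Maff, a small MAF protein, had 1.63 ± 0.23 (adjusted p = 0.000844) and the FOS family member Fosl1 0.91 ± 0.18 (adjusted p = 0.00463). The stress factor Atf3 had 3.22 ± 0.62 (adjusted p = 0.00481), and it also had the replicate gap of day 0 in a stronger form, at -3.82 (adjusted p = 8.97e-17). At day 4 Atf3 held 7.27 ± 9.27 CPM in the Ogdh clones, a spread wider than the mean, and 0.541 ± 0.33 CPM in the control clones.

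Among 4 tested partners of the EGR factors 3 had a net rise (17.9% of all genes), with a median of 1.50. Nab2, a corepressor that EGR factors induce, had a net change of 2.54 ± 0.26 SE (adjusted p = 0.00019), from 5.43 ± 2.19 to 47.5 ± 23.6 CPM (SD, n = 4 clones) with the Ogdh hairpins and from 6.17 ± 2.85 to 9.11 ± 3.96 CPM (n = 2) in the control. Its relative Nab1 had 0.46 ± 0.12 (adjusted p = 0.0163), while Sp1, which binds similar GC-rich sites, had -0.22 ± 0.09 (adjusted p = 0.0883). Egr4 was called at very low levels, 1.28 ± 1.49 CPM in the Ogdh clones and 0.0533 ± 0.00281 CPM in the control clones at day 4.

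In the list of other immediate early genes, which again holds Maff and Atf3, 33 of 53 tested had a net rise and 2 a net fall (17.9% and 19.8% of all genes), with a median of 1.58. The NF-kB inhibitor Nfkbia had 1.68 ± 0.12 SE (adjusted p = 3.71e-05), the MAP kinase phosphatases Dusp5 and Dusp6 had 1.69 ± 0.19 (adjusted p = 0.000285) and 1.44 ± 0.16 (adjusted p = 0.000362), and the zinc finger factor Klf2 had 2.05 ± 0.25 (adjusted p = 0.000438). Klf2 was like Fosb in that the Ogdh clones held 7.47 ± 0.457 CPM before and 6.2 ± 2.78 CPM after induction (SD, n = 4 clones), while the control went from 9.04 ± 6.25 to 1.65 ± 0.953 CPM (n = 2). In the same list replicate 2 was lower than replicate 1 at day 0 for 33 genes and higher for 7, where 18.5% of all genes were lower and 17.9% higher.

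Upstream of these factors, 13 of 35 tested kinases and transcription factors had a net rise and 4 a net fall (17.9% and 19.8% of all genes), with a median of 0.25. Nras had a net change of 0.74 ± 0.12 SE (adjusted p = 0.00153), with 1120 ± 55 and 1250 ± 122 CPM in the Ogdh clones at day 0 and day 4 and 1020 ± 84.7 and 679 ± 61.7 CPM in the control. These counts do not tell the active form of Nras from the normal form. The ERK kinase Mapk3 had 0.70 ± 0.09 (adjusted p = 0.000544), the p38 kinase Mapk13 1.56 ± 0.18 (adjusted p = 0.000327) and the factor Mef2d -1.08 ± 0.12 (adjusted p = 0.000275). Of 24 tested genes described as targets of AP-1 or EGR factors, 16 had a net rise and 1 a net fall (17.9% and 19.8%), with a median of 2.16. They included the integrin Itgam at 2.07 ± 0.11 (adjusted p = 1.48e-05) and the macrophage antigen Adgre1 at 1.19 ± 0.11 (adjusted p = 0.000115). The haem oxygenase Hmox1 went from 34.3 ± 8.2 to 135 ± 35.7 CPM (SD, n = 4 clones) with the Ogdh hairpins and from 29 ± 1.25 to 18.8 ± 0.199 CPM (n = 2) in the control (adjusted p of the net change = 3.59e-06). Several of these targets are also genes of mature myeloid cells. Heat shock genes went the other way, with 0 of 10 tested higher and 6 lower (17.9% and 19.8%) and a median of -0.44. Among them were the mitochondrial chaperonins Hspd1 at -1.01 ± 0.13 (adjusted p = 0.000639) and Hspe1 at -0.89 ± 0.13 (adjusted p = 0.000986), with Hsph1 at -0.59 ± 0.10 (adjusted p = 0.00238) and the heat shock factor Hsf1 at -0.53 ± 0.11 (adjusted p = 0.00496).

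Across the 24 libraries the 10 genes did not move as 1 block. Pearson correlations of log2 CPM were 0.94 between Egr1 and Egr3, 0.91 between Egr1 and Egr2, 0.90 between Junb and Egr3 and 0.86 between Jund and Ier2. Fos correlated with each other gene at between -0.17 and 0.33, and Fosb with none above 0.48, its value with Jun. These points share hairpin, day and clone and are given as a description. Of 9312 genes ranked by the same measure, those most like Egr1 were Rnf11 (0.97), Mdm2 (0.96) and Clec4e (0.96), those most like Egr2 Serpinb2, Trib1 (both 0.93) and Smim3 (0.92), and those most like Egr3 Mdm2, Slc7a11 and Zswim6 (each 0.97). Junb was most like Zbtb7a (0.97), Nt5dc3 and Dusp6 (both 0.96), Jun like Atp6v0c (0.91), Klf6 (0.90) and Smndc1 (0.89), and Jund like Tmbim4, Ggnbp2 and Bach1 (each 0.90). Fosl2 was most like Nr4a1, Aqp9 (both 0.94) and Hal (0.93), Fosb like Sec11c (0.90), Vdac2 (0.88) and Slc20a1 (0.87), Fos like Tfeb (0.81), Mfsd1 (0.80) and F7 (0.79), and Ier2 like Tmc6 (0.92), Csnk2b (0.91) and Numbl (0.89).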

How the data were processed

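The deposited table gives raw counts for each Ensembl gene in 24 RN2 libraries. The submitters' processing notes list the build mm10 (GRCm38) and the tools featureCounts 1.6.3, STAR 2.6.1a, Trimmomatic 0.36 and FastQC 0.11.5. The labels' protocol names a human build, another counter and an RPKM matrix, which the deposited counts do not match. No source used here states the strand setting or the annotation release.

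For each clone and day the counts of both libraries were added into 12 sums. Low genes were removed with filterByExpr, and the sums were scaled with TMM and tested with edgeR 4.0.16 in R 4.3.3 (robust quasi-likelihood test). Changes were fitted with the clone as a block (3 residual degrees of freedom), and levels in 6 groups without it (6 residual degrees of freedom, overstated because each clone enters at both days). Replicate 2 was set against replicate 1 in the 12 libraries of each day with the clone as a block, and the gap was compared between days in 24 libraries. P-values were adjusted by Benjamini-Hochberg over all 14249 genes. CPM used TMM-scaled library sizes, RPKM the deposited transcript length, and correlations log2 CPM with a prior count of 2. Values over clones are mean and SD. Scripts were tested on simulated counts. That the clone pairs the days comes from the labels. Deviations of clones from their group means correlated at 0.60 to 0.84 between the days.

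The members and lists were chosen with earlier results of these data known. Named genes were all 10 members, Ogdh, the 4 genes with the smallest p in the mean net change in each list, and the 3 genes most correlated with each member at a mean of at least 5 CPM, with members left out and predicted gene models passed over in the last. Alternatives were RLE scaling, no filter, DESeq2 1.42.0, other block settings, 1 replicate number alone, and leaving out each library or clone.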

Additional observations from a re-analysis of the deposited data

Results flagged for a closer look

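At day 0 with shOgdh346, Egr2 stood at 0.344 CPM in replicate 2 of clone 1, apart from the other 3 libraries of the group, of which the lowest was at 1.18 CPM. In the same group Ier2 stood at 101 CPM in replicate 1 of clone 1, above a next value of 76 CPM. These were 2 of 60 groups of 4 libraries examined. Chance alone singles out about 1 in 20 groups of 4 independent values, but these libraries are paired within 2 clones, so that rate need not apply. Both flagged libraries lie in the direction of the replicate gap at day 0.

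The difference between replicate 2 and replicate 1 was not the same at day 4 as at day 0 for 7 genes by edgeR's quasi-likelihood test (adjusted p under 0.05). On the log2 scale it was larger at day 4 by 2.29 for Jun, 1.28 for Egr1, 1.24 for Fosb, 1.16 for Egr3, 0.86 for Jund, 0.79 for Egr2 and 0.25 for Ier2. That of Egr2 missed the threshold without shOgdh2081 clone 3 (0.48, adjusted p = 0.318), shOgdh346 clone 1 (0.63, adjusted p = 0.12) or control clone 7 (0.72, adjusted p = 0.0717). This comparison was chosen after seeing the data.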

How the results depend on the processing

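Counts of the 10 genes called were recomputed under each alternative. RLE scaling kept every count within 1.5 times. Without a filter on low counts the count for the control change went from 1 to 5, where 6.19% of 27754 genes were called in place of 6.88% of 14249. That for the difference of the Ogdh hairpins went from 0 to 1 (1.47% in place of 0.105%). The count for the level with shOgdh2081 at day 4 went from 8 to 5 (14.2% in place of 28.5%). For shOgdh346 against shOgdh2081 at day 4 it went from 0 to 1 (0.609% in place of 0%). For Egr1, Egr3, Fosl2 and Fos the fits with no filter gave estimates near those of the main fit with smaller p-values, which cannot be read as the spread between clones. DESeq2 gave 3 for the control change (5.47% of all genes) and 1 in place of 2 for the replicates at day 4 (2.28% in place of 6.15%). With no replicate block, that is without pairing by clone, the net change gave 2 with shOgdh346, 4 with shOgdh2081 and 4 for their mean, where 16.1%, 8.51% and 19.2% of all genes were called in place of 34.8%, 27.8% and 37.7%. The control change gave 6 in 24 libraries with the clone and the replicate block, where 34.9% of all genes were called in place of 6.88%. That fit counts the paired libraries of a clone as separate. With replicate 1 alone the control change gave 3, both at day 0 alone (14.2% of all genes) and at both days (13.6%). The replicate numbers were used as a block only in the fit of 24 libraries: deviations from the clone means correlated at 0.30 to 0.40 between clones at day 0 and at -0.01 to 0.05 at day 4.

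Leaving out 1 clone or library gave 0 to 2 called for the control change, 3 to 9 for the shOgdh346 change, 1 to 7 for the net change with shOgdh346, 2 to 9 with shOgdh2081 and 2 to 9 for the mean. It gave 2 to 7 and 3 to 8 for the day 4 levels with shOgdh346 and shOgdh2081, and 1 to 3 for the replicates at day 4. The share of all genes called at the lowest count is given above for the shOgdh346 change, the net changes and the day 4 levels.

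These changes turned in sign, none of them past the threshold. With the clone and replicate block Jun gave -0.21 with shOgdh346 and -0.25 with shOgdh2081. From day 0 replicate 1 alone Fos gave -0.06 with shOgdh346 and Jun -0.26 with shOgdh2081. From day 0 replicate 2 alone the control change was -0.01 for Junb and 0.61 for Egr3. With replicate 1 alone at both days Fos gave -0.02 and Jun -0.12 with shOgdh346, and Jun -0.29 with shOgdh2081. With replicate 2 alone at both days the control change was 0.02 for Jund and 0.60 for Egr3. Over clones and libraries left out, the control change ran from -0.77 to 0.00 for Fos, -0.10 to 0.25 for Junb and -0.77 to 0.05 for Egr3. Fos ran from -0.62 to 0.63 with shOgdh346 and -0.16 to 0.51 with shOgdh2081, and Jun from -0.22 to 1.39 with shOgdh2081, the last past the threshold. For Fos, the net change with shOgdh346 ran from -0.18 to 1.07, its day 4 level from -0.42 to 1.99 and its replicate gap at day 0 from -0.23 to 0.01. The cause of these shifts was not tested. With 2 clones per hairpin, dropping 1 leaves a lone clone that is assumed to vary like the others.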
